A study of Homo sapiens with 6 samples.

Results

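The 10 genes followed here encode feedback inhibitors of ERK1/2 signalling, and were measured in U2OS cells silenced for CCAR2. They are DUSP1, DUSP4, DUSP5, DUSP6 and DUSP7, which encode phosphatases of MAP kinases, and SPRY1, SPRY2, SPRY4, SPRED1 and SPRED2, which encode Sprouty and Sprouty-related proteins. They were chosen by name and the rule used no measured value, but earlier results of these data were known at the time. These genes (10 of 20046 with a probe) had 17 probes of the 47321 on the Human HT12_v4 bead array. Of them, 7 genes with 1 probe each were detected (a detection p-value below 0.01, against the negative control beads) on 1 array or more and were tested among 12013 genes, whereas DUSP4, SPRY1 and SPRY4 were detected in no array.

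U2OS is a human osteosarcoma cell line. Cells were harvested 6 days after transfection with pooled siRNAs that target CCAR2 (siCCAR2, arrays D, E and F) or with a control siRNA, named siCTRL in the labels and siLUC in the study's text (siLUC, arrays A, B and C). Total RNA was hybridized as labelled cRNA. All 6 arrays were sections of 1 chip, D to F for siCCAR2 and A to C for siLUC, so position and silencing cannot be told apart.

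ERK1 and ERK2 are the last kinases of the cascade that runs from receptor tyrosine kinases through RAS and MEK. Active ERK switches on transcription of its own inhibitors, so that the level of these transcripts is commonly read as the output of the pathway. The inhibitors act at both ends of the cascade. The DUSP phosphatases remove phosphate from ERK itself, some in the nucleus and some in the cytoplasm, whereas Sprouty and SPRED proteins block the signal upstream, near receptor and RAS. The study asked whether CCAR2 silencing alters ERK1/2 activation. Its pathway analysis of the arrays named a network linked to ERK1/2, but its western blots of U2OS cells showed ERK1/2 activation unchanged. The arrays measured the RNA of these feedback genes, not phosphorylation.

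The promoters of the members are shown where a motif that ERK or stress signalling is known to use was found in them. RefSeq promoters of build GRCh38.p14, from 250 bases before to 50 bases after a gene start, were on hand for 8 of the 10 genes (12 promoters). They were searched on both strands for the cyclic AMP response element TGACGTCA, the AP-1 sites TGAGTCA and TGACTCA, the ETS site CCGGAAGT and the CArG box. Among the 35116 promoters of the same length in that collection, 1.85% held the cyclic AMP response element, 4.95% an AP-1 site, 4.14% the ETS site and 1.29% the CArG box. A match was found in 2 of the 12 promoters and none of these letters in the other 10. DUSP1 has the cyclic AMP response element in its promoter, and 1 of the 2 SPRED2 promoters has an AP-1 site. Both are printed 5′ to 3′ with the matched bases in capitals, the first from chr5:172771146-172771445 and the second from chr2:65366729-65367028, both on the minus strand.
DUSP1: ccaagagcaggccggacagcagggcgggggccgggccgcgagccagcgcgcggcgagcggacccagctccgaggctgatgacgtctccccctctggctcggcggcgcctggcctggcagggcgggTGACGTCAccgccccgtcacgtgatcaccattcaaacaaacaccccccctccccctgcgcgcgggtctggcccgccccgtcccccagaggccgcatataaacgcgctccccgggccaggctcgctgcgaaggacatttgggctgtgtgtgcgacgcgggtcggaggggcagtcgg
SPRED2: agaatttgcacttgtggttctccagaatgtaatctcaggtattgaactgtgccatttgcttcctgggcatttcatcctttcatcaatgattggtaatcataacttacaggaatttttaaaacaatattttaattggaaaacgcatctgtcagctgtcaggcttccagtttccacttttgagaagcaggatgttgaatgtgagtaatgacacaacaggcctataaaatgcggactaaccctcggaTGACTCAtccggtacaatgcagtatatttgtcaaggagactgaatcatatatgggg
The element of DUSP1 begins at base -125 and the site of SPRED2 at base -6, counted from the gene start. These are matches of letters, and binding was not measured.

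CCAR2 itself, the silenced gene, had normalized log2 signals of 9.88, 9.96 and 9.91 in siCCAR2 arrays D, E and F, against 11.43, 11.34 and 11.01 in siLUC arrays A, B and C. The groups did not overlap, and CCAR2 was 2.53-fold lower in siCCAR2 cells (log2 fold change of -1.34, standard error 0.15; limma adjusted p = 0.0394). In a bulk extract, fewer cells with a transcript and less RNA per cell cannot be told apart. Array-wide, 3 of 12013 genes (0.025%) passed both thresholds (1.5-fold or more, adjusted p no higher than 0.05), as did 3 of 20857 detected probes taken singly (0.0144%). Of the genes, 780 (6.49%) had an unadjusted p under 0.05, and the groups did not overlap for 1445 (12%). The share of probes detected per array was 37.2% to 41.0%. The mesenchymal genes VIM, COL1A1 and RUNX2 were detected in all 6 arrays, and so was SPARC, a matrix protein gene of bone that was among the 3 genes called (log2 fold change of -1.71, adjusted p = 0.0394). The collagen gene COL1A2 and the osteoblast factor gene SP7 were detected in none. Of the other cell types, the blood genes PTPRC, CD3E and HBB, the endothelial gene CDH5 and the epithelial genes CDH1 and KRT19 were detected in none, while EPCAM and KRT18 were detected in 6 arrays and ELF3 and VWF in 5. The monocyte gene CD14 was detected in 1 array, and its groups did not overlap (log2 fold change of 0.24, adjusted p = 0.805). Nor did they for SPARC, VIM (-0.18, limma adjusted p = 0.832) and KRT18 (0.32, limma adjusted p = 0.772). The endothelial gene PECAM1 was detected in 1 array (-0.28, adjusted p = 0.836), and of the bone genes ALPL was detected in 6 arrays (-0.50, adjusted p = 0.892) and BGLAP in 1. Their part in the results was not tested.

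None of the 7 tested feedback genes passed the thresholds in limma (0 of 7, against 0.025% of all genes). Without pairing of arrays none of the 7 had an unadjusted limma p under 0.05, and the groups overlapped for all 7. Their median log2 fold change was -0.01, against 0.0042 over all genes tested, with 2 genes above 0 and 5 below. This median was -0.24 without siLUC array B, 0.24 without siLUC array A and -0.27 with array quality weights, so that its sign depended on which arrays were used. Only DUSP1 lay further than 0.23 from 0 on the log2 scale. For the 6 others the siCCAR2 and siLUC means differed by less than the spread between arrays. The 95% intervals differed widely in width, so the changes were not known equally well.

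**Figure D1:**
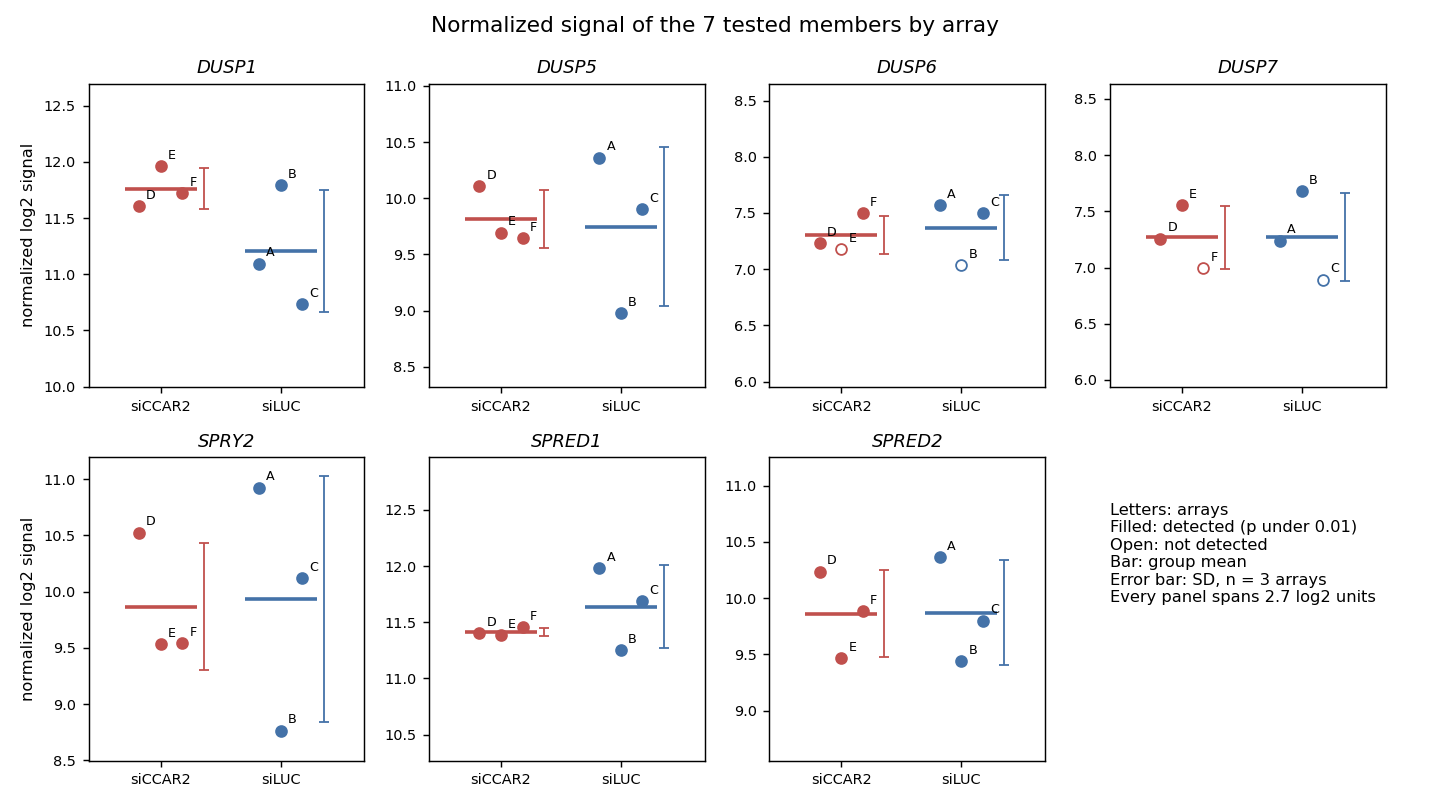
Normalized log2 bead signal of the 7 tested genes in each siCCAR2 array (red) and siLUC array (blue), with the group mean as a bar and the SD beside it (n = 3 arrays). Every panel spans the same height, so that the spread of SPRY2 in siLUC cells (8.76 to 10.93) can be set against that of SPRED1 in siCCAR2 cells (11.39 to 11.46).

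Of the phosphatases of the nucleus, DUSP1 was the member with the highest change. DUSP1, also called MKP-1, is an immediate early gene whose product acts on p38 and JNK as well as on ERK. Its normalized log2 signal was 11.61, 11.96 and 11.72 in siCCAR2 arrays D, E and F, against 11.09, 11.80 and 10.73 in siLUC arrays A, B and C. All 3 siCCAR2 arrays were high, and siLUC array B reached the same level whereas A and C lay below. DUSP1 averaged 11.76 ± 0.18 in siCCAR2 cells and 11.21 ± 0.54 in siLUC cells (SD, n = 3 each), a 1.47-fold difference (log2 fold change of 0.55, standard error 0.25, limma adjusted p = 0.772). The 95% interval of the ratio, from the fit without pairs of arrays, ran between 0.989 and 2.18. The two-sided exact permutation test over arrays, also without pairs, gave p = 0.3. The smallest p that this test allows with 3 arrays against 3 is 0.1. With arrays paired in the order of their sections the limma adjusted p was 0.0693. The log2 fold change was 0.85 without siLUC array B and 0.32 without siLUC array C.

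DUSP5, a phosphatase selective for ERK that holds it in the nucleus, had log2 signals of 10.11, 9.69 and 9.65 in siCCAR2 arrays D, E and F, against 10.36, 8.98 and 9.91 in siLUC arrays A, B and C. The siCCAR2 arrays all fell within the range of the siLUC arrays, whose lowest was B. The means differed by 0.07 on the log2 scale (standard error 0.32; limma adjusted p = 0.98), with a 95% interval of the ratio between 0.639 and 1.72. Without siLUC array B the log2 fold change was -0.32 and without siLUC array A it was 0.38.

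DUSP4, also called MKP-2 and likewise nuclear, was at the level of the negative control beads. Its 2 probes had bead signals of 62.6 to 87.2 in siCCAR2 arrays and 62.0 to 77.5 in siLUC arrays, and their lowest detection p-value in any array was 0.503. No fold change is given for a gene that was not detected in either group.

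The cytoplasmic phosphatases were close to the detection limit. DUSP6, also called MKP-3, is selective for ERK and is among the transcripts most often used to read ERK activity. One of its 2 probes, annotated to a different transcript from the other, had log2 signals of 7.23, 7.18 and 7.50 in siCCAR2 arrays D, E and F, against 7.57, 7.03 and 7.50 in siLUC arrays A, B and C. It was detected in D and F and in A and C, and was just below the limit in E (detection p-value of 0.0143) and B (0.0286). The means differed by -0.07 on the log2 scale (standard error 0.18; limma adjusted p = 0.959), and the 95% interval of the ratio ran between 0.723 and 1.26. The second DUSP6 probe had bead signals of 57.2 to 72.6 and was detected in no array, so the 2 probes of DUSP6 disagree on detection.

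DUSP7, also called MKP-X, is the close relative of DUSP6 in the cytoplasm. It had log2 signals of 7.26, 7.55 and 6.99 in siCCAR2 arrays D, E and F, against 7.24, 7.68 and 6.89 in siLUC arrays A, B and C. It was detected in D and E and in A and B, and the highest and the lowest values were both in siLUC cells. The group means were 7.27 ± 0.28 in siCCAR2 cells and 7.27 ± 0.39 in siLUC cells (SD, n = 3 each; log2 fold change of -0.0027, standard error 0.22; limma adjusted p = 0.999), and the 95% interval of the ratio ran between 0.703 and 1.42. Signals so near the background can understate a fold change.

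**Figure D2:**
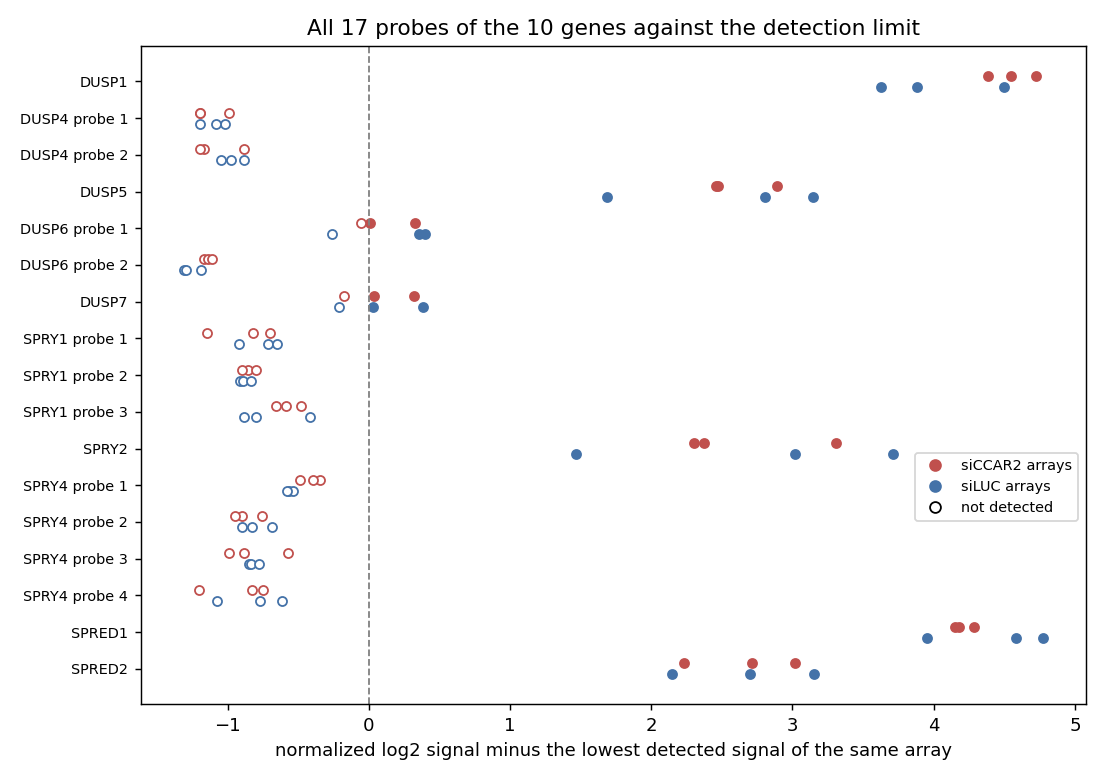
Normalized log2 signal of each of the 17 probes, in each siCCAR2 array (red) and siLUC array (blue), minus the lowest signal that counted as detected in the same array (dashed line). Filled points were detected; the probes of DUSP4, SPRY1 and SPRY4 and the second probe of DUSP6 lie to the left of the line in all 6 arrays.

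Of the Sprouty genes, only SPRY2 was detected. The SPRY2 protein binds the adaptor GRB2 and the ubiquitin ligase CBL. The log2 signal of SPRY2 was 10.52, 9.54 and 9.54 in siCCAR2 arrays D, E and F, against 10.93, 8.76 and 10.12 in siLUC arrays A, B and C. The highest and the lowest of the 6 arrays were both controls, A and B, which differed 4.48-fold, while the siCCAR2 arrays spanned 1.98-fold. The means were 9.87 ± 0.57 in siCCAR2 cells and 9.94 ± 1.09 in siLUC cells (SD, n = 3 each; log2 fold change of -0.07, standard error 0.49; limma adjusted p = 0.988). With this spread the 95% interval of the ratio was 0.439 to 2.07, from the fit without pairs. A change of SPRY2 within this interval, in either direction, is compatible with the data. The interval is not a limit of detection. Its log2 fold change was -0.65 without siLUC array B and 0.43 without siLUC array A.

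SPRY1 and SPRY4, which also restrain receptor signalling, gave no signal above background. The 3 probes of SPRY1 had bead signals of 71.9 to 117.7 in siCCAR2 arrays and 76.4 to 102.7 in siLUC arrays (lowest detection p-value 0.101). The 4 probes of SPRY4 had 69.3 to 117.2 in siCCAR2 arrays and 74.3 to 106.7 in siLUC arrays (lowest detection p-value 0.0429, in array D). At these signals neither a level nor a change can be given.

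The SPRED genes were clearly detected in all 6 arrays. SPRED1 brings the RAS inhibitor neurofibromin to the membrane, and its loss in the germ line causes Legius syndrome. Its log2 signal was 11.40, 11.39 and 11.46 in siCCAR2 arrays D, E and F, against 11.98, 11.25 and 11.68 in siLUC arrays A, B and C. The siCCAR2 arrays lay within 1.05-fold of each other, and siLUC array B lay below all of them while A and C lay above. SPRED1 averaged 11.41 ± 0.04 in siCCAR2 cells and 11.64 ± 0.37 in siLUC cells (SD, n = 3 each), the lowest log2 fold change of the 7 genes with all 6 arrays (-0.23, standard error 0.19; limma adjusted p = 0.849; 95% interval of the ratio between 0.637 and 1.15). It was -0.05 without siLUC array A and -0.42 without siLUC array B, where SPRY2 was lower at -0.65.

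SPRED2, which shares this function, had log2 signals of 10.24, 9.46 and 9.89 in siCCAR2 arrays D, E and F, against 10.37, 9.44 and 9.80 in siLUC arrays A, B and C. Each siCCAR2 array had a siLUC array near its level, and the means were 9.86 ± 0.39 in siCCAR2 cells and 9.87 ± 0.47 in siLUC cells (SD, n = 3 each; log2 fold change of -0.0063, standard error 0.26; limma adjusted p = 0.998). The 95% interval of the ratio ran between 0.657 and 1.51. Without siLUC array A the log2 fold change was 0.24 and without siLUC array B it was -0.22.

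**Figure D3:**
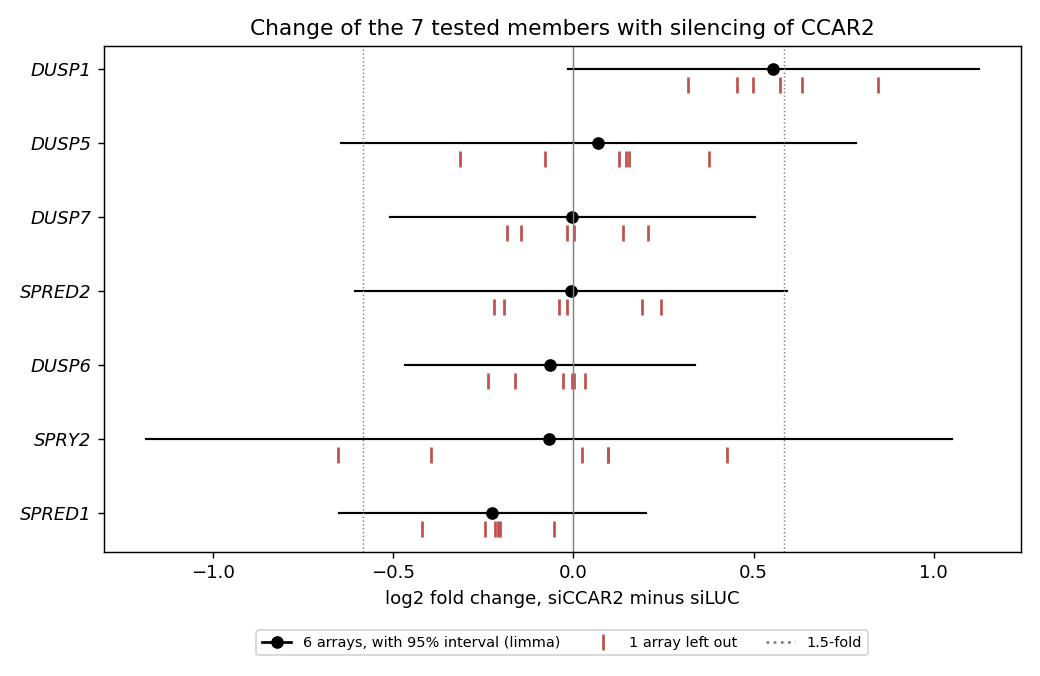
Log2 fold change of the 7 tested genes, siCCAR2 minus siLUC, with the 95% interval from limma (black, 6 arrays) and the values with 1 array left out (red ticks). The dotted lines mark 1.5-fold. The intervals come from the fit without pairs, and every one of them contains 0. That of SPRY2 (-1.19 to 1.05) is the widest.

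For every tested feedback gene but DUSP1, the within-group SD was larger than the difference between the groups. The within-group SD was 0.87 for SPRY2, 0.53 for DUSP5, 0.43 for SPRED2 and 0.40 for DUSP1, against a median of 0.19 over all genes tested, which placed these 4 genes at the 99.3, 96.6, 93.5 and 92.0 percentiles of all genes. DUSP7 (0.34), SPRED1 (0.26) and DUSP6 (0.24) lay at the 87.0, 73.4 and 66.5 percentiles. The standard error of the fold change was accordingly 0.49 for SPRY2, against a median of 0.16 over all genes.

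Part of the variation was shared. DUSP5, DUSP6, SPRY2, SPRED1 and SPRED2 were all highest in siLUC array A and lowest in siLUC array B, as were 445 of 12013 genes (3.70%). Of all genes tested, 18.7% were lowest in B. DUSP6 was not detected in B, and the order of the arrays between A and B was not the same in all of these genes. In both SPRY2 and DUSP5 arrays A, D and C were the top 3 in that order. DUSP1 ran differently, with its highest signals in siCCAR2 array E and siLUC array B and its lowest in siLUC array C, and DUSP7 was highest in B and E and lowest in C. Over the 6 arrays, Pearson's r with SPRY2 was 0.98 for DUSP5, 0.91 for SPRED2, 0.79 for SPRED1 and 0.65 for DUSP6, but -0.60 for DUSP1 and -0.50 for DUSP7. These values are descriptive and carry no test, since the arrays share 1 chip and 244 genes (2.03%) had an r over 0.9 with SPRY2. This pattern was noticed after the values had been seen, and no measure of RNA quality was analysed here.

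**Figure D4:**
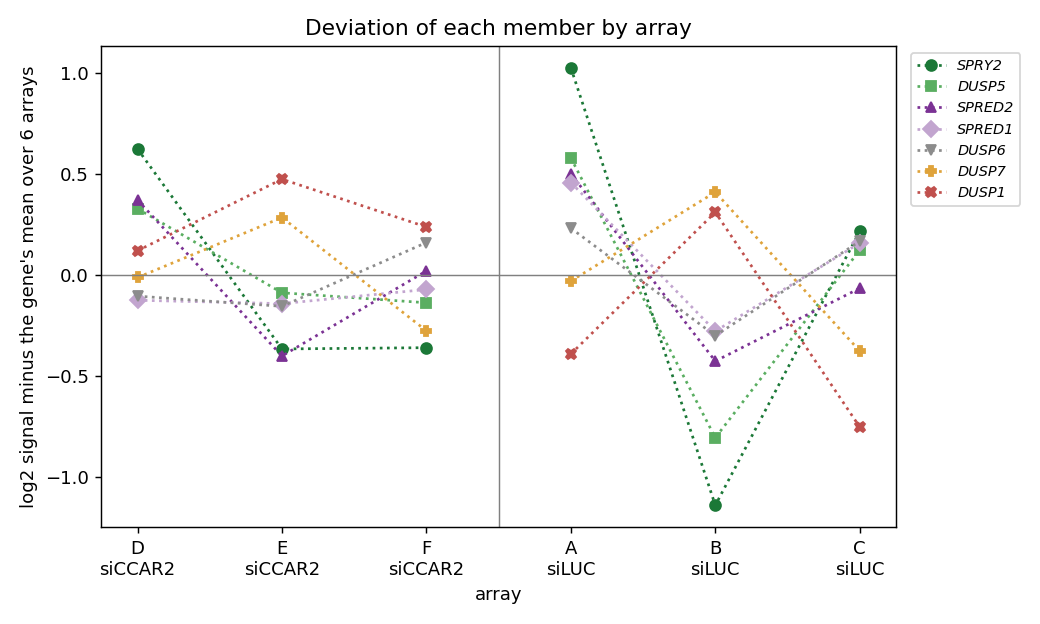
Log2 signal of each tested gene in each array minus its mean over the 6 arrays, with siCCAR2 arrays D, E and F on the left and siLUC arrays A, B and C on the right (dotted lines only guide the eye, since arrays of a group have no order). SPRY2, DUSP5, SPRED2, SPRED1 and DUSP6 peak in A and are lowest in B, whereas DUSP1 and DUSP7 are high in B and E.

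The genes whose pattern over the 6 arrays came closest to that of DUSP1 were WARS1, CTSC and SCNM1, each with an r of 0.996 or more, of 550 genes (4.58%) with an r over 0.9. WARS1 encodes the cytosolic tryptophanyl-tRNA synthetase and CTSC the lysosomal protease cathepsin C. For SPRED1 they were ALPP, FCGR3A and CREB3L2 (each r = 0.99), of 189 genes (1.57%). With 6 arrays such values are reached by many genes.

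The rest of the pathway was followed in lists of genes with a probe above the detection limit. Of the other MAP kinase phosphatases, 4 of 5 were tested and none passed limma (1 above and 0 below 0 with an unadjusted p below 0.05, median log2 fold change 0.048). DUSP2, an inducible nuclear phosphatase, had log2 signals of 8.84, 8.66 and 8.63 in siCCAR2 arrays D, E and F, against 8.31, 8.39 and 8.48 in siLUC arrays A, B and C, with no overlap (log2 fold change of 0.32, adjusted p = 0.767). DUSP16, which acts on JNK, did not overlap either, at -0.24 (adjusted p = 0.793), while DUSP8 lay at 0.06 and DUSP9 at 0.035.

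Of the Sprouty relatives, their partners and other brakes on RAS, 10 of 14 were tested and none passed limma (0 at an unadjusted p under 0.05, median -0.04). NF1, the neurofibromin that SPRED proteins recruit, CBL and GRB2 were among them. The largest values were those of the caveolins CAV2 (log2 fold change of 0.82, adjusted p = 0.773) and CAV1 (0.74, adjusted p = 0.829), membrane proteins that bind Sprouty, and of LRIG1, a membrane inhibitor of receptors of the EGF family (-0.72, adjusted p = 0.846). PEBP1 lay at -0.10 (adjusted p = 0.899). The groups overlapped for all 10 genes.

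Among components of the ERK cascade, 15 of 22 were tested, none passed limma (2 above and 0 below 0 with an unadjusted p below 0.05) and the median was 0.028. MAP2K2, the gene of the ERK kinase MEK2, had log2 signals of 11.26, 11.05 and 11.18 in siCCAR2 arrays D, E and F, against 10.60, 10.83 and 10.23 in siLUC arrays A, B and C. The groups did not overlap, with a log2 fold change of 0.61 (SE 0.17, adjusted p = 0.747). The adaptor gene SHC1 did not overlap either (0.50, standard error 0.14, adjusted p = 0.747). The receptor genes PDGFRA and PDGFRB lay at -0.91 and -0.31 and overlapped, as did SOS2, a RAS exchange factor, at 0.24.

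Among other target genes of ERK, 17 of 22 were tested, 9 above 0 and 8 below, and none passed limma (1 above and 0 below 0 with an unadjusted p below 0.05, median 0.056). PLAUR, the urokinase receptor, had log2 signals of 9.64, 9.74 and 10.03 in siCCAR2 arrays D, E and F, against 8.97, 9.48 and 9.18 in siLUC arrays A, B and C, with no overlap (log2 fold change of 0.60, adjusted p = 0.767). The ephrin receptor gene EPHA2 did not overlap at 0.24, FOSL1, a partner of JUN in AP-1, lay at 0.41 and the transcription factor gene EGR1 at -0.43, with overlap. The median of this list was -0.16 without siLUC array B and 0.13 without siCCAR2 array F.

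No gene passed limma in the lists for stress, for the glucocorticoid receptor and for the p38 and JNK kinases. Of the 14 stress induced immediate early genes with a probe 13 were tested (0 at an unadjusted p under 0.05, median -0.01). They were led by GADD45A at 0.49 (limma adjusted p = 0.776), ATF3 at 0.45, JUNB at 0.27 and MAFF at -0.24. Of the targets of the glucocorticoid receptor 6 of 7 were tested (1 above and 0 below 0 with an unadjusted p below 0.05, median -0.04), with CEBPD at 0.48 (adjusted p = 0.767), TSC22D3 at 0.24, SGK1 at -0.19 and ZBTB16 at -0.17. The median of this list was 0.18 without siLUC array C and -0.13 without siLUC array B. Of p38 and JNK kinases and other kinases of their cascades, 8 of 10 were tested (0 above and 1 below 0 with an unadjusted p below 0.05, median -0.07). MAPK14 and MAP2K7 had no probe with their symbol. MAPK9, the gene of JNK2, lay at -0.51 (adjusted p = 0.767), MAPK8, the gene of JNK1, at -0.31, MAPK11 at 0.19 and MAPK13 at -0.16. Over all genes tested, 3.49% lay above 0 and 3.01% below 0 with an unadjusted p below 0.05.

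**Figure D5:**
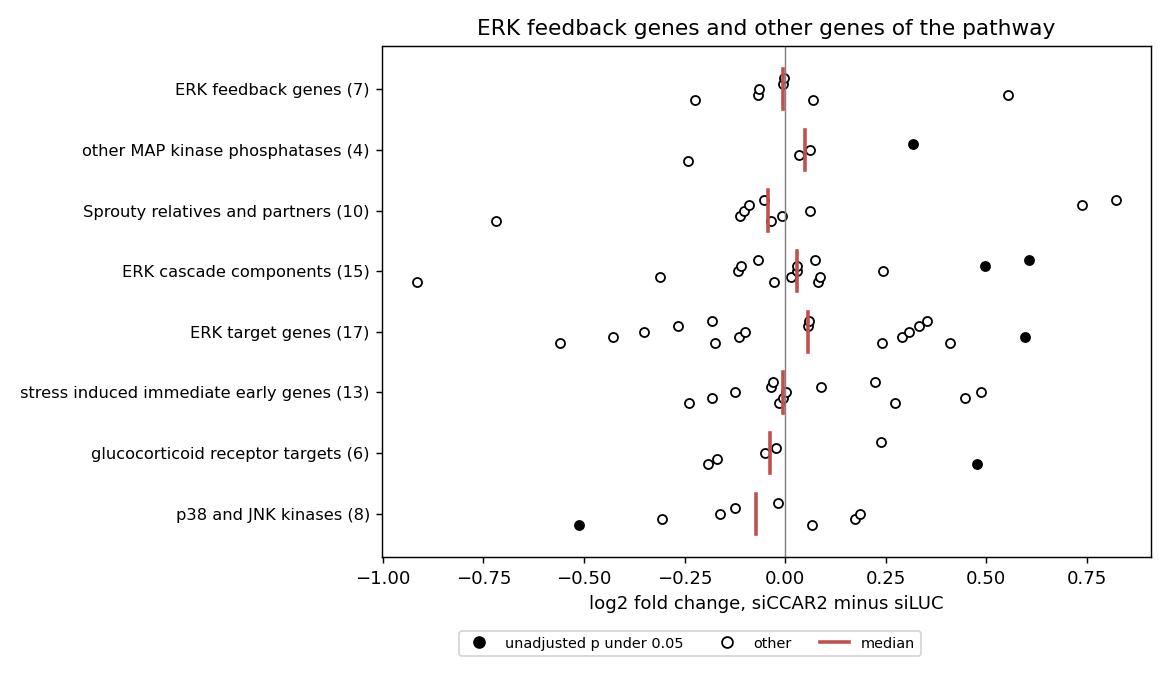
Log2 fold change, siCCAR2 minus siLUC, of every tested gene of the feedback genes and of the 7 other lists (number tested in parentheses), with the list median in red and genes at an unadjusted p under 0.05 filled. With all 6 arrays the median of each list lies within 0.08 of 0, and DUSP1 lies at 0.55.

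The study named its own limma comparison as paired, but no label says which siCCAR2 and siLUC arrays belong together. With arrays D and A, E and B, and F and C taken as pairs, in the order of their sections, limma with this replicate block called 200 genes (1.66%, with 0.999% higher and 0.666% lower) and still 0 of the 7 feedback genes. DUSP1 differed by 0.51 between D and A, 0.16 between E and B and 0.99 between F and C (log2 fold change of 0.55, SE 0.15, adjusted p = 0.0693 with the block), and was the only one of the 7 with an unadjusted p under 0.05, against 17.3% of all genes. SPRY2 differed by -0.40, 0.77 and -0.58 and DUSP5 by -0.25, 0.72 and -0.26 in the same pairs, so that the pair of E and B ran against both others. With the block the standard error was 0.20 for SPRY2 and 0.12 for SPRED2, with adjusted p of 0.895 and 0.988 (limma). The eBayes step draws these standard errors toward the variance typical of all genes. For SPRY2 and DUSP1 they are smaller than the scatter of their own pair differences would give, so they do not show that the pairs agreed. In the lists, the block called CAV1 (adjusted p = 0.0154), CAV2 (adjusted p = 0.0089), MAP2K2 (adjusted p = 0.0402) and PLAUR (adjusted p = 0.0345) higher and PDGFRA lower (adjusted p = 0.0164) in siCCAR2 cells, all from limma. Without the block none of them passed. With the block, 8 of 17 ERK target genes had an unadjusted limma p under 0.05, in both directions (EGR1 at -0.43, FOSL1 at 0.41). So did 4 of 15 cascade components, 3 of 10 Sprouty relatives and partners and 2 of 13 stress genes. The counts were 2 of 8 for p38 and JNK kinases, 1 of 4 for other phosphatases and 1 of 6 for glucocorticoid receptor targets. The difference between ERK target genes and the 17.3% of all genes was not tested.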

How the data were processed

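U2OS cells transfected with siCCAR2 or a control siRNA were profiled on Human HT12_v4 bead arrays, 3 per group. The authors deposited a non-normalized intensity (mean bead signal) and a detection p-value per probe, and a table of normalized intensity values that is on a linear scale and quantile normalized. The processing notes name BeadStudio 3.8 and the methods GenomeStudio. The robust spline normalization of the methods was not run here. Bead signals were put on a log2 scale and quantile normalized, with no background subtracted. Probes were named through the platform annotation: 30112 carry 1 symbol, 8 several and 17201 none. A probe was kept if its detection p-value was below 0.01 on 1 array or more. Each symbol was represented by its most often detected probe and, among equals, by the one with the widest interquartile range, following the methods.

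Groups were compared with lmFit and eBayes of limma 3.58.1 (R 4.3.3) over all 12013 genes, with Benjamini-Hochberg adjustment, and every probe of the 10 genes was examined (pandas 2.3.3 and matplotlib 3.10.9 in Python 3.11.15). Calls required 1.5-fold or more and an adjusted p no higher than 0.05. The fit without the block was run on simulated data with independent noise for each gene. Variation shared between genes or pairs of arrays, and the fit with the block, were not simulated. The labels describe independent triplicates, and with so few arrays the precision is limited. The 10 genes and all lists were chosen with earlier results of these data known. Named from each list are the 4 genes with the smallest p and every gene called with or without the block, and, beside DUSP1 and SPRED1 (highest and lowest change), the 3 genes of highest correlation; NF1, CBL and GRB2 and all cell type markers with a probe are named as members of their lists. Replicates carry no number in the labels, so pairs were tried only as an alternative: deviations of D and A from their group means correlated at 0.61, E and B at 0.67 and F and C at 0.44. Further alternatives were neqc (offset 16), the deposited table, cyclic loess, median scaling, other probe filters and choices, a variance trend, array weights and leaving out each array; combining them with the block was chosen after seeing the data. Some genes of the lists had no probe with their symbol and were not analysed here.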

Additional observations from a re-analysis of the deposited data

How the results depend on the processing

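None of the 7 tested feedback genes was called under any alternative run, with or without the replicate block. The number of genes called array-wide was 3 and became 0 with neqc, 0 with only a median scaling, 0 when the brightest probe stood for each gene, 18 with array quality weights, and between 0 and 7 with 1 array left out (7 without siLUC array B). With the replicate block it was 200, and combined with it 74 after neqc, 197 with the deposited table, 204 with cyclic loess, 63 with median scaling alone, 202 with no detection filter, 186 with detection in at least 3 arrays, 180 with the brightest probe per gene, 172 with a variance trend and robust estimation, and 274 with no fold threshold.

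DUSP1 and SPRED1 kept their direction in every fit. The log2 fold change of DUSP1 lay between 0.32 and 0.85 with 1 array left out and between 0.41 and 0.62 under the other alternatives without the block. With the block its adjusted p lay between 0.0427, with a variance trend and robust estimation (1.47-fold, so not called), and 0.589, with median scaling alone. Under that scaling all genes had a median of -0.11. SPRED1 lay between -0.42 and -0.05 with 1 array left out. The others are near 0, and the sign turned. DUSP7 was 0.012 after neqc and 0.038 with cyclic loess, without and with the block, and lay between -0.18 and 0.21 with 1 array left out. DUSP5 was -0.057 with median scaling alone, without and with the block, and -0.35 with array quality weights, and lay between -0.32 and 0.38 with 1 array left out. With 1 array left out SPRY2 lay between -0.65 and 0.43, SPRED2 between -0.22 and 0.24, and DUSP6 between -0.24 and 0.033. With array quality weights SPRY2 was -0.72, SPRED1 -0.44, SPRED2 -0.27 and DUSP6 -0.16. With median scaling alone the median was -0.14 for the feedback genes and -0.24 for the ERK target genes. No signal over background limits DUSP4, SPRY1 and SPRY4, and a weak one DUSP6 and DUSP7.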
